A study of Arabidopsis thaliana with 163 samples.

Results

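The *Arabidopsis thaliana* circadian clock genes described here are *PCL1* (AT3G46640, also named *LUX*), *CCA1* (AT2G46830), *LHY* (AT1G01060), *TOC1* (AT5G61380), *PRR9* (AT2G46790), *PRR7* (AT5G02810), *PRR5* (AT5G24470), *ELF3* (AT2G25930), *ELF4* (AT2G40080) and *GI* (AT1G22770), 10 of 27444 nuclear protein-coding genes. They were selected because the MYC2 peak with the highest fold in the deposited list lies within *PCL1*, so the fold of that peak is a description and not a test. Every listed histone domain and MYC2 peak that overlapped a gene body or the 2 kb upstream of it was taken.

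The series set a plate-based, low-input chromatin immunoprecipitation protocol (PHILO) against regular ChIP-seq and followed H3K9ac over hours of treatment with jasmonic acid (JA), which plants make on wounding. It holds 163 samples in 56 groups, and only the groups with a deposited list of domains or peaks are described. Tissue was whole seedlings aged 10 days, on medium with sucrose. The groups were wild type Col-0 after 2 h JA, given as gaseous methyl jasmonate, and untreated Col-0 controls, with 3 H3K9ac libraries each in the large-scale experiment and 3 each in a separate time course. Further untreated Col-0 groups were 3 PHILO libraries each of H3K9ac, H3K4me3, H3K36me3 and H3K27me3, 2 regular H3K9ac libraries and 1 PHILO library made with IgG, which has no chromatin target. MYC2 was profiled after 2 h JA and in controls, 2 libraries each. By the study's methods these seedlings were *myc2* mutants carrying a FLAG-tagged MYC2 transgene under its own promoter, whereas other labels of these samples repeat those of the wild type H3K9ac libraries. Another label of the IgG library likewise names the H3K9ac antibody. That library, the reference of the folds over IgG, was grouped by its title, as the MYC2 libraries were. Whole seedlings mix all organs, so a weaker mark in all cells and a mark in fewer cells cannot be told apart. Time of day at harvest was not given in the sources used here, and for genes whose activity follows the clock, the effect of 2 h JA and that of the hour of sampling cannot be told apart from these lists.

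The plant clock is a network of repressors that act in turn over the day. *CCA1* and *LHY* encode related MYB factors of the early morning, which bind the evening element in promoters of evening genes, and the pseudo-response regulators *PRR9*, *PRR7*, *PRR5* and *TOC1* follow each other from morning to evening and repress *CCA1* and *LHY*. *ELF3*, *ELF4* and *PCL1* encode the evening complex, which represses *PRR9* and other targets at night. *GI* encodes a large protein of the late day that stabilises the F-box protein ZTL and promotes flowering. H3K9ac and H3K4me3 mark active gene starts, H3K36me3 marks transcribed bodies, and H3K27me3 marks genes silenced by Polycomb. MYC2 is a basic helix-loop-helix factor that drives JA responses and binds the G-box, CACGTG, and relatives of it.

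The sequences on which the MYC2 results turn are those at the summits, the positions of highest enrichment. They were read from RefSeq TAIR10.1, whose nuclear coordinates equal those of TAIR10, on the forward strand. Capitals mark every match to the G-box CACGTG, to its relative CACGTT and to the related E-box CACATG on either strand, and matches may overlap. At *PCL1* only the central 29 bases are shown (chr3:17186159-17186187), because an annotated UTR exon covers the site, and at *PRR9* and *GI* the windows reach 50 bp to either side of the summit (chr2:19232328-19232428 and chr1:8061161-8061261).
PCL1 summit: tgcgCACATGTGaagCATGTGgtcgatgg
PRR9 summit nearest to the gene: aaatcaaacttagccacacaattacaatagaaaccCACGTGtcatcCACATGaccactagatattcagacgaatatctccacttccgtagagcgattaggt
GI summit: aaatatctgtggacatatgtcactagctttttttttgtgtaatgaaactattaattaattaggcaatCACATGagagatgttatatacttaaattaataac

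The 29 bases at *PCL1* hold 3 matches to CACATG, read as CACATG or its complement CATGTG, of which a pair overlaps in CACATGTG. The *PRR9* window holds 1 CACGTG and 1 CACATG, and the *GI* window holds 1 CACATG. Within 50 bp of the summit, CACGTG lay at 27.3%, CACGTT at 20.2% and CACATG at 24.2% of all 3464 MYC2 peaks, and at least 1 of them lay at 64.3%. The second *PRR9* summit and the *PRR5* summit had no match to these letters within 50 bp, although the *PRR5* peak held CACGTG elsewhere in its 282 bp.

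A MYC2 peak was listed at 4 of the 10 clock genes (*PCL1*, *PRR9*, *PRR5* and *GI*), against 12.5% of all genes, and since the genes were selected on the *PCL1* peak, nothing is read from that count. The *PCL1* peak (chr3:17185927-17186388, summit at 17186173) had a fold of 11.1 and a −log10 q of 108, and it ranked first of 3464. The next peak in the list, just outside the selection, had a fold of 9.23, and the median fold of all peaks was 2.59. The other clock gene peaks were all below that median. The 2 *PRR9* peaks had folds of 2.31 (summit at chr2:19232378, 229 bp upstream of the gene start) and 2.28 (19232002, 605 bp upstream), with ranks of 2393 and 2463. The *GI* peak (chr1:8061112-8061350, summit 540 bp upstream) had a fold of 2.2 and ranked 2662, and the *PRR5* peak (chr5:8359667-8359948, summit 1218 bp upstream) had a fold of 1.73 and ranked 3411. Their −log10 q values were 3.03 to 4.17, and at a minimum of 5 *PCL1* was the single clock gene left. The peaks had been called on pooled libraries, so they carry no replicate error, and the list itself names neither side of its comparison, which by the methods was 2 h JA against control.

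**Figure D1:**
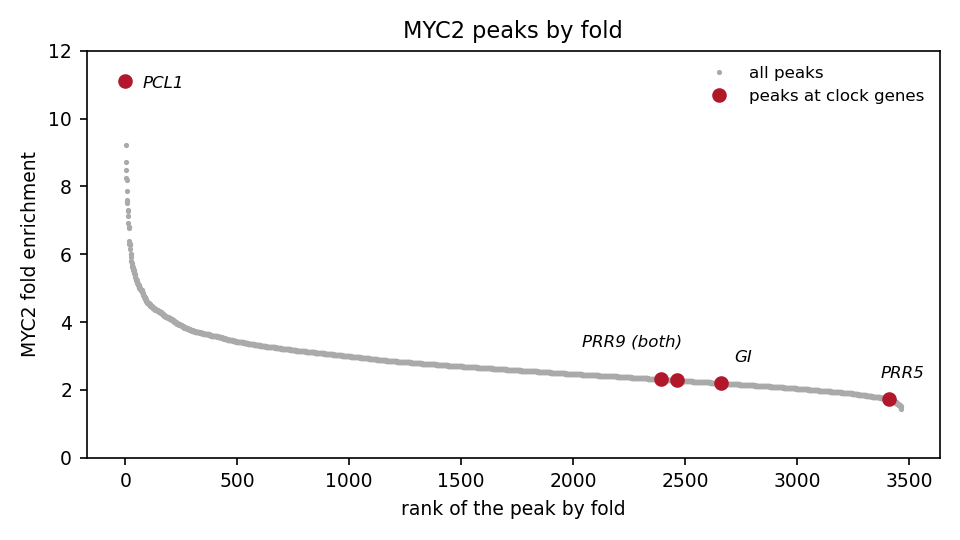
MYC2 fold enrichment (y axis) of all 3464 peaks by rank (x axis), in grey, with the 5 peaks at clock genes in red. *PCL1* holds the highest fold, 11.1, and the peaks at *PRR9*, *GI* and *PRR5* lie between 1.73 and 2.31, below the median of 2.59.

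The *PCL1* summit did not lie at the start of the gene. *PCL1* is annotated on the forward strand at chr3:17183042-17186959, and the summit was 3131 bp past its start and 1184 bp past the last coding base of any of its 3 annotated mRNAs. Those mRNAs end at 17184886, 17185354 and 17186959, so the summit fell in the 3′ UTR of the longest mRNA alone, and 1287 and 819 bp beyond the ends of the shorter ones. It also lay in an intron of AT3G46650 (chr3:17185453-17187821), a gene on the opposite strand that encodes a UDP-glycosyltransferase family protein, 1648 bp inside its start. The peak therefore belongs to both genes by position. The 4 remaining clock gene peaks were intergenic and upstream.

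JA changes of H3K9ac at *PCL1* were not listed in any direction. The nearest JA domain of any list began 2428 bp from the summit, on the far side of AT3G46650 from *PCL1*, and it was a gain. Over all peaks 600 summits (17.3%) lay in a large-scale JA gain, and among the 100 highest peaks 31 did. Of the 4 clock genes with a peak, 2 were in any JA list, *PRR9* and *PRR5*, against 2389 of the 3431 genes with a peak (69.6%). *PRR5* alone had its summit inside a JA domain, the time course gain. A gene missing from a list has no value there, and a change too small for the caller is not shown to be absent.

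Over 7 log2 folds (the 4 marks over IgG, both JA gains and MYC2, with 0 where nothing was listed), 3 genes lay nearest to *PCL1* among all protein-coding genes. *GID1A* (AT3G05120), a gibberellin receptor, was at a Euclidean distance of 0.497, and the MYC2 log2 fold was 3.47 at *PCL1* against 3.12 at *GID1A*. The MYC2 fold, on which *PCL1* was selected, is among the 7 values. AT3G46650, which by position shares both the peak and the H3K9ac domain with *PCL1*, was at 0.693, and AT1G74060 was at 0.85. All 3 had a large-scale JA gain (log2 fold 0.225, 0.356 and 0.14), which *PCL1* did not.

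After 2 h JA, H3K9ac gains were listed at *PRR5*, *TOC1* and *ELF4* and losses at *CCA1*, *LHY* and *PRR9*, with log2 folds of 0.42 to 0.66 for gains and -0.46 to -0.30 for losses. In the large-scale experiment 3 of 10 clock genes had a gain, against 13.1% of all genes. In the time course 2 of 10 had a gain, against 21.1%, and 3 of 10 had a loss, against 16.3%. With 10 genes, nothing is read from the difference between these shares and the background. None of these 10 genes was listed in both directions, and *PRR7*, *ELF3*, *PCL1* and *GI* were in no JA list. Only gains were available for the large-scale experiment, so losses could be read from the time course alone. Both experiments used libraries of their own. Each list compares pooled counts at an FDR below 0.05 given by the caller, so the intervals below are exact 95% intervals of a ratio of counts, cover counting error only and say nothing of the spread between seedlings.

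*PRR5*, a late-day repressor of *CCA1* and *LHY*, had 1261 counts after 2 h JA against 991 in control seedlings over chr5:8354801-8358600 in the large-scale experiment, a log2 fold of 0.42 (0.30 to 0.55). In the time course the listed domain was longer (chr5:8354601-8362200) and held 2417 counts after JA against 1788 in control, a log2 fold of 0.45 (0.36 to 0.54). The shorter domain covers the whole *PRR5* body and the downstream neighbour AT5G24460, and the longer one adds the upstream region with the MYC2 summit. *PRR5* was thus the clock gene with a gain on its own body in both experiments.

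*TOC1*, the evening member of the family, had a gain in the large-scale experiment alone, with 803 counts after JA against 629 in control over chr5:24673001-24676000 and a log2 fold of 0.43 (0.28 to 0.58). That domain runs across the 1962 bp upstream, into the neighbour AT5G61370, and the first 1037 bp of *TOC1*. It was in neither time course list.

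*ELF4*, a small protein of the evening complex, had gains over the same 800 bp in both experiments (chr2:16736601-16737400). Counts were 225 after JA against 150 in control in the large-scale experiment, a log2 fold of 0.66 (0.36 to 0.97), and 209 against 137 in the time course, a log2 fold of 0.62 (0.31 to 0.95). These were the largest JA folds among the 10 genes, yet the domain lies 1648 to 2447 bp upstream, on the neighbouring gene AT2G40085, and no JA domain touched the *ELF4* body.

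*CCA1* had a loss on its own body (chr2:19245801-19247800), with 378 counts after JA against 470 in control in the time course and a log2 fold of -0.30 (-0.50 to -0.10). *LHY*, its closest relative, also had a loss on its own body, near the gene start (chr1:36801-37800, 71 to 1070 bp past the start), with 122 counts after JA against 170 in control and a log2 fold of -0.46 (-0.81 to -0.12). Neither interval reached 0, but both came near it, and these were the domains with the widest intervals among the losses at clock genes. Both losses lay where no H3K9ac domain over IgG had been listed in untreated seedlings, as 93 of all 2550 time course losses did (3.65%).

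*PRR9*, the morning member of the pseudo-response regulators, had a loss 1407 to 3406 bp upstream (chr2:19229201-19231200), with 582 counts after JA against 789 in control and a log2 fold of -0.42 (-0.58 to -0.27). The domain lies wholly on the neighbour AT2G46780 and ends 802 bp before the first MYC2 summit (19232002), and no JA domain was listed on *PRR9* itself. On gene bodies alone the members listed were therefore *PRR5* and *TOC1* for the large-scale gain, *PRR5* for the time course gain, and *CCA1* and *LHY* for the loss.

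**Figure D2:**
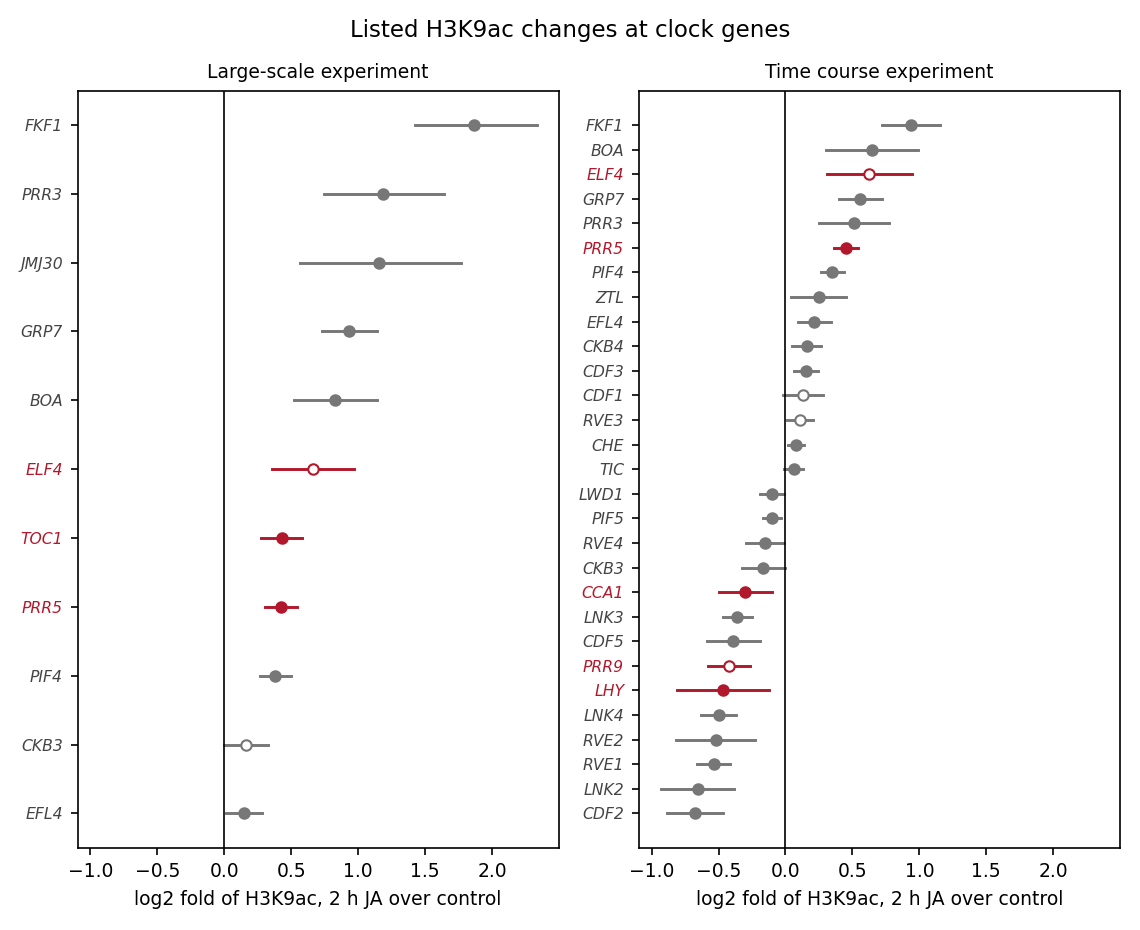
log2 fold of H3K9ac, 2 h JA over control (x axis), of each listed domain at a clock gene in the large-scale experiment (left, gains only) and the time course (right, gains and losses). Red marks the 10 clock genes and grey the other clock genes, filled points are domains on the gene body, open points are domains upstream alone, and bars are exact 95% intervals of counting error. *ELF4* (0.66 and 0.62) has the highest red point in both panels and *LHY* (-0.46) the lowest.

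Each of these folds was larger in size than the median of its list. The median log2 fold of all large-scale gains was 0.285, and 74.3% to 89.5% of those domains had a smaller fold than the domains at *PRR5*, *TOC1* and *ELF4*. In the time course the median was 0.241 for gains and, as control over JA, 0.252 for losses. The *PRR5* gain exceeded 84.3% of time course gains and the *ELF4* gain 92.8%. The *CCA1* loss exceeded 61.9% of losses, the *PRR9* loss 79.3% and the *LHY* loss 83%. At a minimum log2 fold of 0.5, *ELF4* alone was left in each gain list and no clock gene was left in the loss list.

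**Figure D3:**
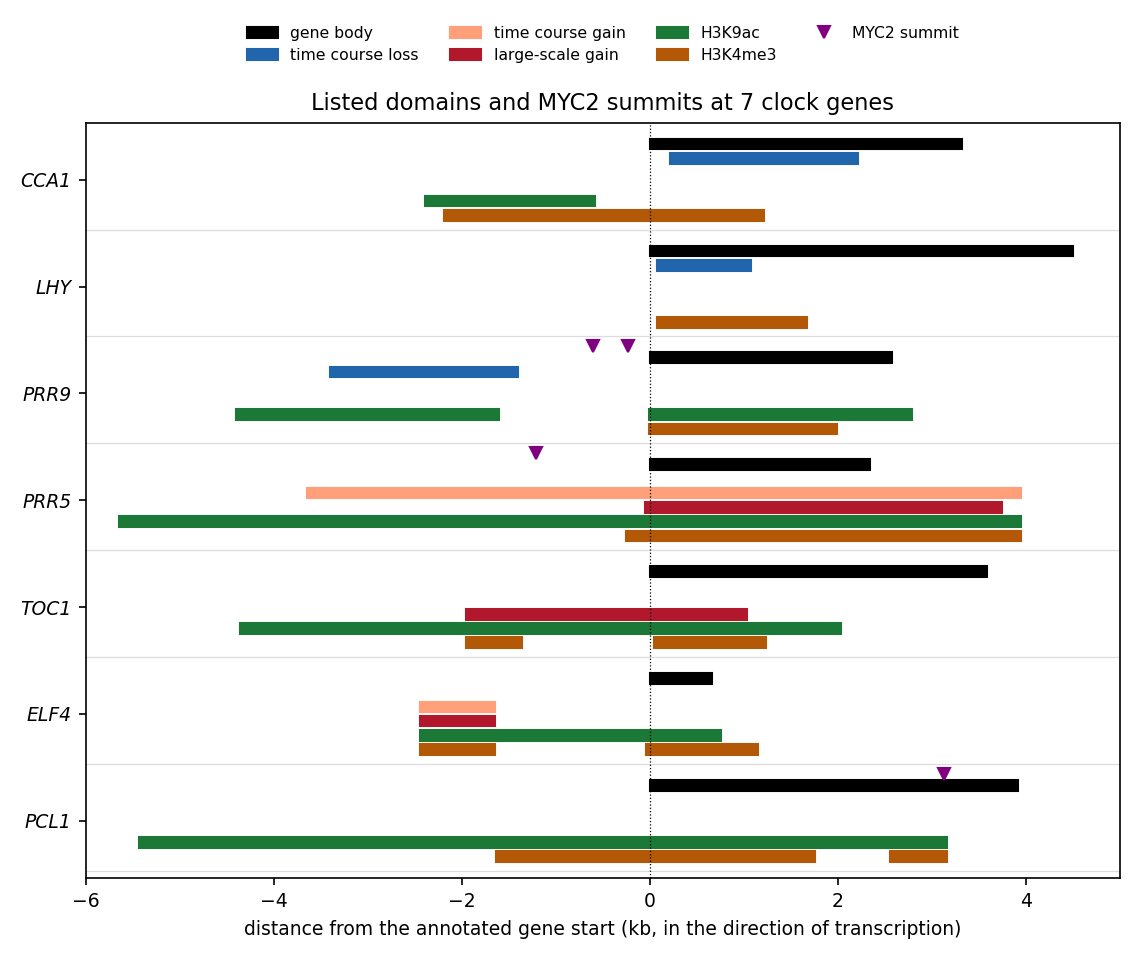
Listed domains by distance from the annotated gene start (x axis, kb, in the direction of transcription) at 7 clock genes, with the gene body in black, JA losses in blue, JA gains in red and pale red, H3K9ac over IgG in green, H3K4me3 in brown and MYC2 summits as purple triangles. The losses of *CCA1* and *LHY* lie on the gene body where green is absent, the JA domains of *PRR9* and *ELF4* lie upstream of the gene, and the *PCL1* summit lies 3131 bp past its start.

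Promoters of these genes are shown because clock factors act through short motifs in them. The 300 bp upstream of the gene start were searched on both strands for the G-box CACGTG, the evening element AAAATATCT, the CCA1-binding site AAAAATCT and the LUX-binding site GATACG. Capitals mark the matches, and each sequence is given in the direction of transcription.
CCA1 upstream (chr2:19245291-19245590, forward strand): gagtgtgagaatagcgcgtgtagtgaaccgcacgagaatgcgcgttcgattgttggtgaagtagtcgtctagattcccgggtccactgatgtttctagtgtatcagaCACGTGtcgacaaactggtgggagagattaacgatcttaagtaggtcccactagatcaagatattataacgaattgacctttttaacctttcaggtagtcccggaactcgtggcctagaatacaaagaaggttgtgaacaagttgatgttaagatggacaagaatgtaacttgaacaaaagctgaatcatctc
LHY upstream (chr1:37872-38171, reverse strand): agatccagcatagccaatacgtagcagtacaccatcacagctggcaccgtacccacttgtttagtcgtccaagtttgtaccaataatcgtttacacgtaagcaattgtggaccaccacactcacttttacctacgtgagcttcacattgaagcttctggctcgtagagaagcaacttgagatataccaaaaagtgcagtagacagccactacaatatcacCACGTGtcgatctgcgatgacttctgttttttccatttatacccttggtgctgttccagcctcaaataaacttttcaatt
TOC1 upstream (chr5:24674663-24674962, forward strand): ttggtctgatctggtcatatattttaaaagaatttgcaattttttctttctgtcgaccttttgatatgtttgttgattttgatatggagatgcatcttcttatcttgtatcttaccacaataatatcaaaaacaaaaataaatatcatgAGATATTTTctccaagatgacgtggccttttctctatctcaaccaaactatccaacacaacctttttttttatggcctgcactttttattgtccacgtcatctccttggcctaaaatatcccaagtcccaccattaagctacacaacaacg
PRR5 upstream (chr5:8358547-8358846, reverse strand): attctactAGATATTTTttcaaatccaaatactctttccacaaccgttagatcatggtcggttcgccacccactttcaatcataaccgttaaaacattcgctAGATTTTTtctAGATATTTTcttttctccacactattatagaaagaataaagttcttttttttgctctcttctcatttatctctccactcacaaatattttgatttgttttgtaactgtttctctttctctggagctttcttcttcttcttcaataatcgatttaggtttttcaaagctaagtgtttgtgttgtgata
PCL1 upstream (chr3:17182742-17183041, forward strand): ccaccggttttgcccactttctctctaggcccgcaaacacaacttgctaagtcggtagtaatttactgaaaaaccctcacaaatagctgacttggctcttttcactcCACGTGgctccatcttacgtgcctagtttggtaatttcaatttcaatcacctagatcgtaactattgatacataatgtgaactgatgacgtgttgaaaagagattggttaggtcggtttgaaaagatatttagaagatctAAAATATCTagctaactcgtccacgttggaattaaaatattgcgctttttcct

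CACGTG was present upstream of 5 of 10 clock genes (*PCL1*, *CCA1*, *LHY*, *PRR9* and *PRR7*), against 7.09% of 27443 promoters of the same length. The evening element was present upstream of 3 (*PCL1*, *TOC1* and, at 2 positions, *PRR5*), against 2.79% of promoters. The CCA1-binding site was present upstream of 1 gene (*PRR5*), against 7.94%, and the LUX-binding site upstream of 2 (*ELF3* and *ELF4*), against 5.51%. The clock genes with a loss on their body or upstream, *CCA1*, *LHY* and *PRR9*, each had CACGTG in this window and no evening element. The same held for *PRR7*, which was in no JA list, so this pattern does not set the genes with a loss apart. A match is a description of letters and not a site of binding. Of the 5 genes with CACGTG in this window, *PRR9* alone had a MYC2 summit in it as well.

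In untreated seedlings domains of the active marks were listed at most clock genes, as at most of all genes. An H3K4me3 domain was listed at 10 of 10, against 72.7% of all genes, an H3K36me3 domain at 10 of 10, against 66.8%, and an H3K9ac domain at 9 of 10, against 75.5%. An H3K27me3 domain was listed at 1 of 10 (*LHY*), against 42.3%. With 10 genes, nothing is read from the differences between these shares, and some counted domains lie on a neighbour alone, as given below. Median log2 folds over IgG of the domains at the clock genes were 2.61 for H3K4me3, 2.05 for H3K36me3 and 1.27 for H3K9ac, against medians of 2.67, 1.80 and 1.22 over all genes with such a domain. The levels of these marks at the listed clock genes were thus near those of other marked genes.

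*CCA1* and *LHY* differed from the other clock genes in H3K9ac. *LHY* had no H3K9ac domain in its window in any list over IgG, and at *CCA1* the listed domain (chr2:19243201-19245000) ended 591 bp before the gene start, on the neighbour AT2G46820, which encodes a thylakoid protein. On gene bodies alone 8 of 10 clock genes had an H3K9ac domain, against 66.1% of all genes. H3K4me3 nevertheless reached into both bodies, at a log2 fold over IgG that was 2.52 at *CCA1* and 1.44 at *LHY*, the lowest among the 10, and 6.58% of all H3K4me3 domains had a lower one. The *CCA1* domain began 2190 bp upstream and also overlapped AT2G46820, so 2.52 is not a value of *CCA1* alone. Among all genes with H3K4me3 on the body, 517 of 17429 (2.97%) had no H3K9ac domain there. H3K36me3 on the *CCA1* body had a log2 fold of 2.49, above 99.2% of all such domains, and on *LHY* one of 1.81. The H3K27me3 domain counted for *LHY* (chr1:38601-44800, log2 fold 1.80) started 730 bp upstream on the neighbour AT1G01070, *UMAMIT28*, an amino acid transporter, and no clock gene had H3K27me3 on its own body.

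Among the pseudo-response regulators, H3K4me3 over IgG was highest at *PRR5* (log2 fold 3.29) and *TOC1* (3.21), followed by *PRR7* (2.55) and *PRR9* (2.32). H3K9ac over IgG was 1.29 at *PRR5*, 1.27 at *TOC1*, 1.22 at *PRR7* and 1.02 at *PRR9*. The *PRR9* domains at the gene (H3K4me3 and H3K36me3, both chr2:19232601-19234600) began at its start and lay past both MYC2 summits. *PRR7* shared an H3K36me3 domain of 20800 bp (chr5:638801-659600) with several neighbours, so its log2 fold of 1.83 is not a value of *PRR7* alone. The H3K9ac domains spanned 9600 bp at *PRR5* and 6400 bp at *TOC1*, with several neighbours, and 2800 bp at *PRR7* and at *PRR9*. Their order is thus one of listed domains and not of the genes alone.

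In the evening complex *ELF3* had the highest value of the 10 genes for each active mark, with log2 folds over IgG of 3.31 for H3K4me3, 2.54 for H3K36me3 and 1.73 for H3K9ac. H3K9ac and H3K4me3 at *ELF3* covered the same 1000 bp (chr2:11059001-11060000). *PCL1* had 3.00, 1.87 and 1.48, and a further small H3K4me3 domain of 600 bp with a log2 fold of 1.91 covered its MYC2 summit (chr3:17185601-17186200). The H3K9ac value of *PCL1* belongs to a domain of 8600 bp that also covers several neighbours, so it is not a value of *PCL1* alone. *ELF4*, a gene of 660 bp, had the lowest H3K9ac value of the listed 9, 0.82, H3K4me3 at 2.57, and no H3K36me3 on its body, where the domain counted (log2 fold 1.59) lay on AT2G40085. *GI*, the longest of the 10 genes at 6040 bp, had log2 folds of 2.65 for H3K4me3, 2.19 for H3K36me3 and 1.11 for H3K9ac.

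**Figure D4:**
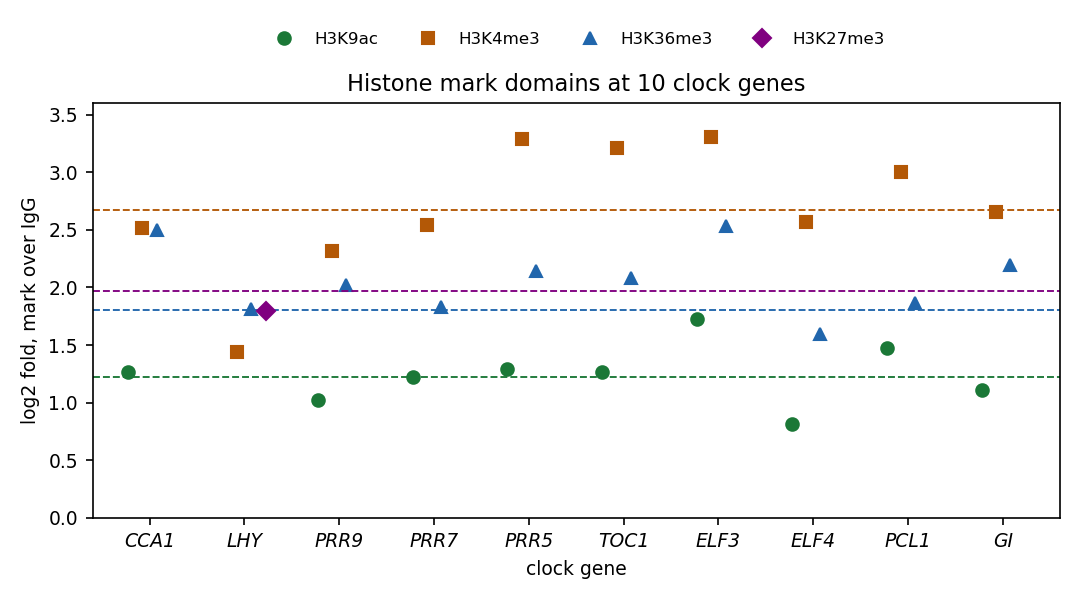
log2 fold over IgG (y axis) of the domain with the largest overlap at each clock gene (x axis) for H3K9ac, H3K4me3, H3K36me3 and H3K27me3, with dashed lines at the median over all genes with a domain of that mark. *LHY* has the lowest H3K4me3 point (1.44), no H3K9ac point and the single H3K27me3 point, and *ELF3* has the highest H3K9ac and H3K4me3 points (1.73 and 3.31).

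The tissue labels were checked with 4 genes. The leaf genes *RBCS1A* and *LHCB2.1* had H3K4me3 log2 folds of 2.48 and 2.72 and H3K9ac log2 folds of 1.32 and 0.96. Neither had an H3K36me3 domain, and *RBCS1A* also had H3K27me3 at 2.03. The seed storage gene *CRA1* had no H3K9ac, H3K4me3 or H3K36me3 domain and carried H3K27me3 at 3.13. *SESA1* had H3K27me3 at 3.08 beside listed H3K9ac (1.13), H3K4me3 (2.74) and H3K36me3 (1.82) domains. Its H3K4me3 was above that of both leaf genes, and its H3K9ac lay between theirs. The marks thus did not split the leaf genes from the seed genes cleanly. The pooled H3K9ac list was deposited as PHILO data. Over domains with the same bounds its counts were a median of 0.67 times the sum of the 3 PHILO libraries (5th to 95th percentile 0.523 to 0.844). They were a median of 1.02 times the sum of the 2 regular libraries (0.911 to 1.13), and above that sum at many domains. A plain sum of reads would give equal counts at every domain, so the list is the plain sum of neither group. The study's methods merge all 3 replicates of a mark. Whether reads were dropped on merging was not tested, and the libraries in the pool were not identified from the counts. The median log2 fold of the pooled list was 1.23, below the medians of single libraries (1.42 to 2.0). The H3K9ac folds over IgG given above come from the pooled list, and the values of single libraries follow below.

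The protocols were compared at the clock genes in untreated Col-0 seedlings. The same 9 clock genes, all but *LHY*, had an H3K9ac domain in each library, against 75.0%, 73.7% and 73.7% of all genes in PHILO replicates 1 to 3 and 72.6% and 72.4% in regular replicates 1 and 2. At *PCL1* the domain had the same bounds in all 5 libraries (chr3:17177601-17186200, across *PCL1* and upstream genes). Its counts were 5792, 4334 and 4093 in the PHILO libraries and 4715 and 4348 in the regular ones, against 628 in the shared IgG library, and its log2 folds over IgG were 2.23, 2.33 and 2.35 in PHILO and 1.67 and 1.71 in regular libraries. The folds of the PHILO libraries all lay above the regular ones.

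At *CCA1* the upstream domain had log2 folds over IgG of 2.22, 2.21 and 2.39 in PHILO and 1.47 and 1.51 in regular libraries. At *PRR7* they were 1.77, 1.98 and 1.94 in PHILO and 1.33 and 1.39 in regular libraries. At *PRR9* the protocols were closer, with 1.25, 1.36 and 1.32 in PHILO and 1.01 and 1.08 in regular libraries. *ELF3* had 2.41, 2.25 and 2.53 in PHILO and 1.7 and 1.91 in regular libraries, and *ELF4* had 1.31, 1.32 and 1.25 in PHILO and 0.80 and 0.75 in regular libraries. For each of these genes the PHILO libraries lay above the regular ones without overlap, as they did at 98.0% of all matched domains. Median log2 folds over all domains of a library were 1.91, 1.99 and 2.00 in PHILO and 1.42 and 1.47 in regular libraries.

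*GI* came nearest to an overlap, with 1.32, 1.95 and 2.03 in PHILO and 1.29 and 1.31 in regular libraries. Its domain began at different places, 1950 bp upstream in PHILO replicate 1, 150 bp upstream in PHILO replicates 2 and 3, and 550 bp upstream in both regular libraries. *PRR5* (1.98, 2.69 and 2.69 in PHILO, 1.51 and 1.41 in regular libraries) and *TOC1* (1.89, 2.00 and 2.74 in PHILO, 1.55 and 1.44 in regular libraries) were also cut into domains of unequal length, 4200 to 9600 bp at *PRR5* and 2200 to 6000 bp at *TOC1*. The *ELF4* domain likewise spanned 1200 bp in PHILO replicate 3, 1600 bp in regular replicate 2 and 3000 to 3200 bp in the other libraries. Values over common bounds were not computed for these 4 genes, and the part of the bounds in their differences was not tested.

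**Figure D5:**
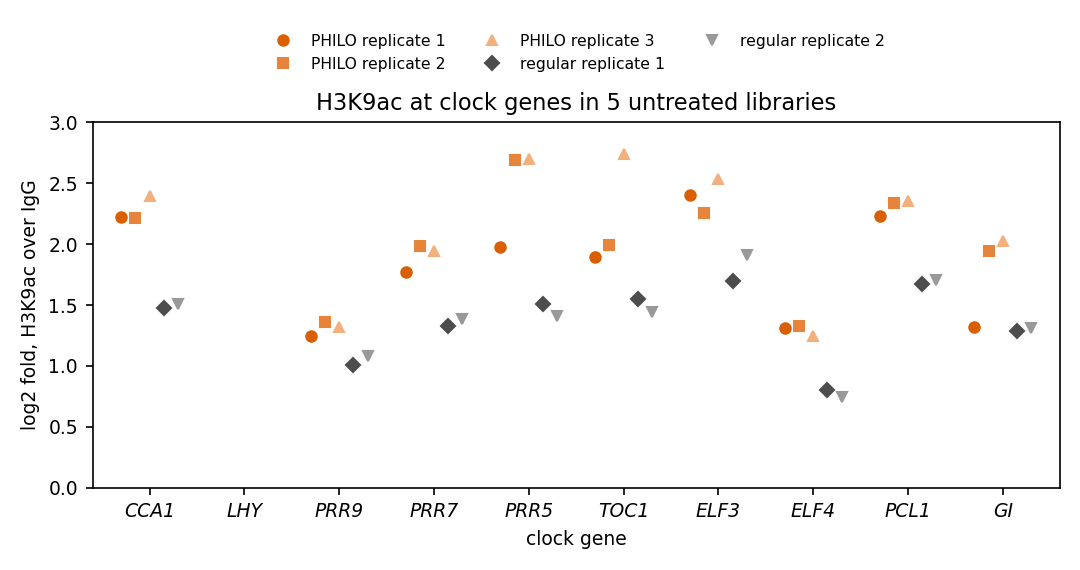
log2 fold of H3K9ac over the shared IgG library (y axis) at each clock gene (x axis) in the 3 PHILO libraries (orange) and the 2 regular libraries (grey), for the domain with the largest overlap in each list. The PHILO points lie above the regular points at all 9 genes with a domain, most narrowly at *GI* (1.32 against 1.31), and *LHY* has no domain in any library.

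Counts were tested over 6451 domains found in all 5 lists with at least 80% of both lengths shared, and *PCL1*, *PRR9* and *PRR7* had such a domain. After scaling on the bulk of domains (TMM), edgeR's quasi-likelihood test called 2.71% of domains higher and 3.74% lower in PHILO libraries. Scaling on recovered library totals in its place moved the median log2 difference of all domains to 0.55 and called 6348 domains, 100% of them higher in PHILO. Relative to other domains, the *PRR9* domain had a log2 difference of -0.30 (SE 0.07, adjusted p = 0.0211 by edgeR), which turned to 0.26 with library totals and to 0.27 for the fold over IgG. The library totals were recovered from the listed folds over the shared IgG library, so these shifts are not separate results. *PCL1* had 0.05 (SE 0.04, adjusted p = 0.477 by edgeR) and *PRR7* had -0.04 (SE 0.07, adjusted p = 0.765 by edgeR).

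The 2 regular libraries differed by less than plain sampling noise (chi-square per degree of freedom 0.901 over 1167 domains of equal bounds), whereas the PHILO pairs gave 1.45 to 1.94. With both regular libraries counted as 1 sample, the difference at *PRR9* was -0.30 with an adjusted p of 0.227 by edgeR and 0 domains were called, with 858 at an unadjusted p under 0.05. The lower *PRR9* count in PHILO libraries thus did not hold as a call in that fit, and neither did any other domain. With the regular libraries as separate samples, its adjusted p was 0.0444 by DESeq2 and 0.0176 by edgeR with a replicate block. Without PHILO replicates 1, 2 and 3 in turn it was 0.0199, 0.0697 and 0.0497 by edgeR. The study calls its H3K9ac libraries of untreated seedlings biological replicates, and the labels do not say which plants each library came from. The p-values measure the spread between libraries, which for the regular pair was within sampling noise.

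Gains and losses after JA were also listed at other genes of the clock. In a list of 37 further clock genes, 8 (21.6%) had a large-scale gain, 13 (35.1%) a time course gain, 11 (29.7%) a time course loss and 9 (24.3%) a MYC2 peak, against the 13.1%, 21.1%, 16.3% and 12.5% of all genes given above. The largest large-scale gain was at *FKF1*, an F-box relative of ZTL that controls flowering in long days, with 187 counts after JA against 54 in control and a log2 fold of 1.87 (1.43 to 2.33). *PRR3*, the remaining pseudo-response regulator, followed with 1.19 (0.75 to 1.64), then the histone demethylase gene *JMJ30* with 1.15 (0.56 to 1.77), *GRP7*, an RNA-binding protein gene, with 0.93 (0.73 to 1.14), and *BOA*, the closest relative of *PCL1*, with 0.83 (0.52 to 1.14). All 5 exceeded the largest large-scale fold among the 10 genes described first, 0.66 at *ELF4*. All but the *FKF1* interval overlapped that of *ELF4* (0.36 to 0.97). All but *JMJ30* also had a time course gain, at *BOA* over a different stretch of the gene. Those log2 folds were 0.94 at *FKF1*, 0.64 at *BOA*, 0.56 at *GRP7* and 0.51 at *PRR3*, against 0.62 at *ELF4*.

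Time course losses were largest at *CDF2* (-0.67, -0.88 to -0.47), a repressor of *CO*, and at *LNK2* (-0.66, -0.93 to -0.38), a coactivator that works with RVE8. *RVE1* (-0.54, -0.66 to -0.41) and *RVE2* (-0.52, -0.81 to -0.23), both MYB relatives of *CCA1* and *LHY*, and *LNK4* (-0.50, -0.63 to -0.37) came next. These exceeded the *LHY* loss of -0.46 in size, and the intervals overlapped. The remaining losses, at *CDF5*, *LNK3*, *CKB3*, *RVE4*, *PIF5* and *LWD1*, lay between -0.39 and -0.10. *CKB3* was listed in both directions, with a large-scale gain upstream of the gene (0.16, -0.0023 to 0.33). Among the 9 genes with a MYC2 peak, *CDF5*, *LNK3*, *RVE1* and *PIF5* also had a loss, as *PRR9* did, *PIF4*, *CHE* and *BOA* had a gain, as *PRR5* did, and *EFL3* and *RVE8* were in no JA list. In MYC2 fold the highest of the 37 were *EFL3* (3.50), *RVE1* (2.75), *CDF5* (2.64), *RVE8* (2.57) and *PIF5* (2.46), all well below the 11.1 at *PCL1*.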

How the data were processed

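Domain and peak lists of ChIP-seq libraries were analysed. Per the methods, the authors mapped reads with Bowtie2 2.4.1 (TAIR10), called domains with epic2 0.0.52 (listed as SICER in the submitters' notes) per library or on merged replicates, and MYC2 peaks with MACS2 2.2.7.1. Deposited domain lists give counts of treatment and control reads, a log2 fold that includes the ratio of library totals, and p-values with an FDR (below 0.05). The deposited peak list gives a fold enrichment and −log10 q. Sequencing depths tabulated by the study were not used here. The lists hold 8986137 to 13807286 counts summed over H3K9ac domains of a library.

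Gene windows (body plus 2000 bp upstream) came from RefSeq TAIR10.1, and coordinates count from 1. Where several domains overlapped, the one with the largest overlap entered medians and distances. Fold intervals were exact (Clopper-Pearson, 95%). Counts of matched domains were tested with edgeR 4.0.16 under R 4.3.3 (TMM, offset for domain length, adjusted by Benjamini and Hochberg, threshold 0.05). DESeq2 1.42.0 and limma 3.58.1 served as alternatives. On simulated data (6451 domains, of which 200 differed 1.5-fold) 100% were found, with 10 false calls. The simulation gave both protocols the same spread and planted no smaller change. It therefore does not cover a difference as small as that at *PRR9*. Scripts ran in Python 3.11.15 with scipy 1.17.1, pandas 2.3.3, numpy 2.4.6 and, for plots, matplotlib 3.10.9.

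Named genes were all 10 members, up to 5 of 37 further clock genes per JA direction and for MYC2 by fold, and the 3 genes nearest to *PCL1*. Genes named for a JA list together with a MYC2 peak, and the remaining losses, were named after their values were seen. Members, lists and tests were chosen with earlier results of these data known. Alternatives were narrower windows, larger overlaps, stricter fold, FDR and q limits, other scalings and matchings, a replicate block and each library left out. Counting both regular libraries as 1 was added after seeing the data. Groups without a list were not analysed here.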

Additional observations from a re-analysis of the deposited data

How the results depend on the processing

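Of 36 recounts of clock genes in the lists, 28 stayed within 1.5 times the count. With a log2 fold of at least 0.5, 1 gene had a large-scale gain, 1 a time course gain and 0 a loss. On the gene body alone, and with 1 kb upstream, 1 gene had a time course gain. On the gene body alone 1 had a MYC2 peak and 0 had H3K27me3, and 1 had a MYC2 peak at a −log10 q of at least 5. The JA, mark and MYC2 lists pool libraries, so no library could be left out.

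For the protocol comparison the 416 domains called by edgeR (42.1% higher in PHILO) became 228 with DESeq2 (67.1% higher), 6348 with recovered library totals, 6319 with limma on the fold over IgG (both 100% higher), and 276 of 1167 domains (54.0% higher) or 313 of 1274 (52.4% higher) with stricter matching. Without 1 library at a time 0 to 902 were called. With both regular libraries counted as 1, 0 were called. Without either regular library the lone one was taken to vary like PHILO, and 0 were called. Without PHILO replicate 2, 25 were called, without PHILO replicate 3, 197, and without PHILO replicate 1, 902. The *PRR9* difference turned to 0.262 with library totals and 0.267 over IgG, and *PRR7* turned to 0.526 and 0.541, which is the shift of all domains, and *PCL1* then had 0.618 and 0.617. Both settings rest on the folds over the shared IgG library, so they are not separate checks. The *PRR9* adjusted p was 0.0697 without PHILO replicate 2 and 0.238 and 0.242 without regular replicates 1 and 2, by edgeR. With the replicate block 538 were called (43.9% higher in PHILO), and same-numbered libraries did not deviate together (correlation 5.5e-05 and 0.041), so the numbers were not taken as pairs.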
